A study of Mus musculus with 8 samples.

Results

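Expression of 8 genes was described in mouse pancreatic tumour isografts: the PEA3 transcription factor genes Etv1, Etv4 and Etv5, the later-responding transcription factor genes Fosl1 and Myc, and the ERK-induced genes Phlda1, Ier3 and Plaur. The 8 were chosen by symbol, with earlier results of these data known, and all 8 are among the 19129 genes tested. Each was set against Dusp6, the ERK phosphatase gene that is a standard readout of ERK activity. Bulk RNA sequencing covered tumours of 8 mice, 4 labelled MEKi and 4 labelled control. The MEKi mice were given trametinib for 7 days, a drug that blocks MEK1 and MEK2, the kinases that activate ERK. The control mice are labelled only as controls, and what they received, the mouse strain, the age and the genotype of the transplanted tumour were not stated in the labels. Each library comes from a whole tumour piece that also holds host cells, so that fewer cells of a type and less RNA per cell cannot be told apart in any result below.

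ERK is the last kinase of the cascade that runs through RAF and MEK. Active ERK phosphorylates transcription factors within minutes, and their immediate targets in turn switch on a later set of genes. The PEA3 factors are ETS-family DNA-binding proteins whose transcription is released when ERK inactivates the repressor CIC. Fosl1 encodes FRA-1, an AP-1 subunit stabilised by ERK, and Myc encodes a factor that drives ribosome production and growth and is also stabilised by ERK. Phlda1 encodes a pleckstrin-homology-like protein, Ier3 an early response protein linked to cell survival, and Plaur the receptor of the plasminogen activator urokinase.

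Values are on the authors' variance-stabilised, log2-like scale, where 1 unit is roughly a doubling when reads are plentiful and stands for a larger fold when they are few. Each library had 20090101 to 38569550 reads in the genes tested. The 2 genes with the fewest reads, Fosl1 and Etv1, still had 58 to 528 and 97 to 439 reads in a library. Epithelial markers were present throughout, with a mean over 9 genes of 11.82 to 13.05 in the MEKi tumours and 12.82 to 12.96 in the control tumours. One library stood apart: MEKi 4 held the lowest value of 21.7% of all genes and the highest of 23.2%, against at most 13.8% and 15.97% for any other library, and it had the lowest epithelial mean. Acinar enzyme genes took 11.3% of the reads of control 3 and 3.89% of control 2, against at most 0.239% in the other libraries, and 1 of the 9 acinar genes, Amy2a5, had no reads in MEKi 2, MEKi 3 and control 1.

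One stretch of regulatory sequence is shown because Plaur was the only gene, of those with a promoter sequence here, that held a searched motif. Promoters from RefSeq (GRCm38.p6) covered Etv1, Etv5, Ier3, Plaur and Dusp6, with 7 windows of 300 bases in all, from 250 bases before to 50 after a gene's start. Both strands were searched for the CIC octamers TGAATGAA and TGAATGGA, for CCGGAAG (bound by ETS proteins), for TGANTCA (bound by AP-1), for CACGTG (the E-box read by MYC and MAX), for TGACGTCA (the cyclic AMP response element) and for the serum response element. The AP-1 letters, which share no bases with another searched motif here, were found once, in the Plaur window, and 7.81% of all 32851 promoter windows hold them. The other letters were in none of the 7 windows, and they occur in 1.30% and 1.21% (CIC), 8.86% (ETS), 7.15% (E-box), 1.79% (cyclic AMP) and 1.63% (serum response) of all windows. The 250 bases before the Plaur start (chr7:24462233-24462482, plus strand) follow 5′ to 3′, with the match TGACTCA, 69 to 63 bases before the start, in capitals.
Plaur: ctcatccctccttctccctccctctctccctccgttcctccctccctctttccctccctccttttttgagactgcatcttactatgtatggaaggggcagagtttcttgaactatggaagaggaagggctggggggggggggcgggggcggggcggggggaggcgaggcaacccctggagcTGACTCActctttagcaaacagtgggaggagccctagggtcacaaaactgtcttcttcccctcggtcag
Such a match is a description of letters and not of binding.

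The PEA3 genes varied widely between tumours of the same label. Etv4 (chromosome 11, 101769742 to 101785371, minus strand) had 10.42, 11.22, 11.18 and 9.56 in MEKi tumours 1 to 4, against 11.20, 11.19, 10.45 and 10.15 in control tumours 1 to 4. Its 4 highest tumours, MEKi 2, MEKi 3, control 1 and control 2, lay within a narrow band while MEKi 4 was lowest of all, and the labels overlapped. Etv5 (chromosome 16, 22381309 to 22439719, minus strand) had 9.75, 11.12, 10.82 and 9.85 in MEKi tumours 1 to 4, against 10.98, 11.09, 10.25 and 9.67 in control tumours 1 to 4. The same 4 tumours were highest, and MEKi 1, MEKi 4 and control 4 were low together.

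Etv1 ordered the tumours differently from its relatives. Etv1 (chromosome 12, 38779380 to 38870484, plus strand) had 7.80, 7.88, 8.14 and 7.36 in MEKi tumours 1 to 4, against 8.27, 8.80, 8.26 and 7.49 in control tumours 1 to 4. Control 2 was highest and MEKi 4 lowest, and control 3, in the middle for Etv5, was above 5 tumours here. Per exon length Etv1 was the scarcest of the 8 genes, with a median of 0.549 RPKM over annotated exons, against 21.8 for Etv4 and 13.3 for Etv5.

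Myc and Fosl1 spanned more of the scale than the PEA3 genes. Myc (chromosome 15, 61985391 to 61990374, plus strand) had 10.06, 12.31, 11.72 and 10.23 in MEKi tumours 1 to 4, against 12.22, 12.23, 10.70 and 10.02 in control tumours 1 to 4. In RPM, reads scaled to library size, this was 40.3, 195, 135 and 46.2 in the MEKi tumours, against 183, 173, 52.2 and 39.8 in the control tumours. High and low tumours were thus found under both labels, with a 4.90-fold ratio of highest to lowest tumour. Fosl1 (chromosome 19, 5447547 to 5455946, plus strand) had 7.25, 9.06, 8.60 and 7.25 in MEKi tumours 1 to 4, against 8.76, 9.03, 7.16 and 7.03 in control tumours 1 to 4. MEKi 2, MEKi 3, control 1 and control 2 were again high and the other 4 lay within a narrow low band, a 6.74-fold ratio of highest to lowest in RPM. Fosl1 overlaps Ccdc85b on the opposite strand, which had at most 268 reads in a library. The libraries came from a stranded kit, but the labels do not say whether counting used strand, so reads of that pair may not be told apart.

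The 3 target genes followed the same broad pattern with differences in MEKi 4. Plaur (chromosome 7, 24462484 to 24475968, plus strand) had 10.54, 12.30, 11.52 and 10.42 in MEKi tumours 1 to 4, against 11.97, 12.12, 10.73 and 10.37 in control tumours 1 to 4. MEKi 4 was second lowest, next to control 4. Ier3 (chromosome 17, 35821684 to 35822923, plus strand) had 10.33, 11.64, 10.82 and 10.70 in MEKi tumours 1 to 4, against 11.24, 11.42, 10.08 and 10.24 in control tumours 1 to 4. Phlda1 (chromosome 10, 111506286 to 111508645, plus strand) had 7.75, 9.48, 9.69 and 8.84 in MEKi tumours 1 to 4, against 9.28, 9.17, 7.71 and 7.88 in control tumours 1 to 4. In both Ier3 and Phlda1, MEKi 4 lay between the low and the high tumours, and the labels overlapped. Phlda1 overlaps the lincRNA gene Gm28592 on the opposite strand, which is not among the tested genes.

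**Figure D1:**
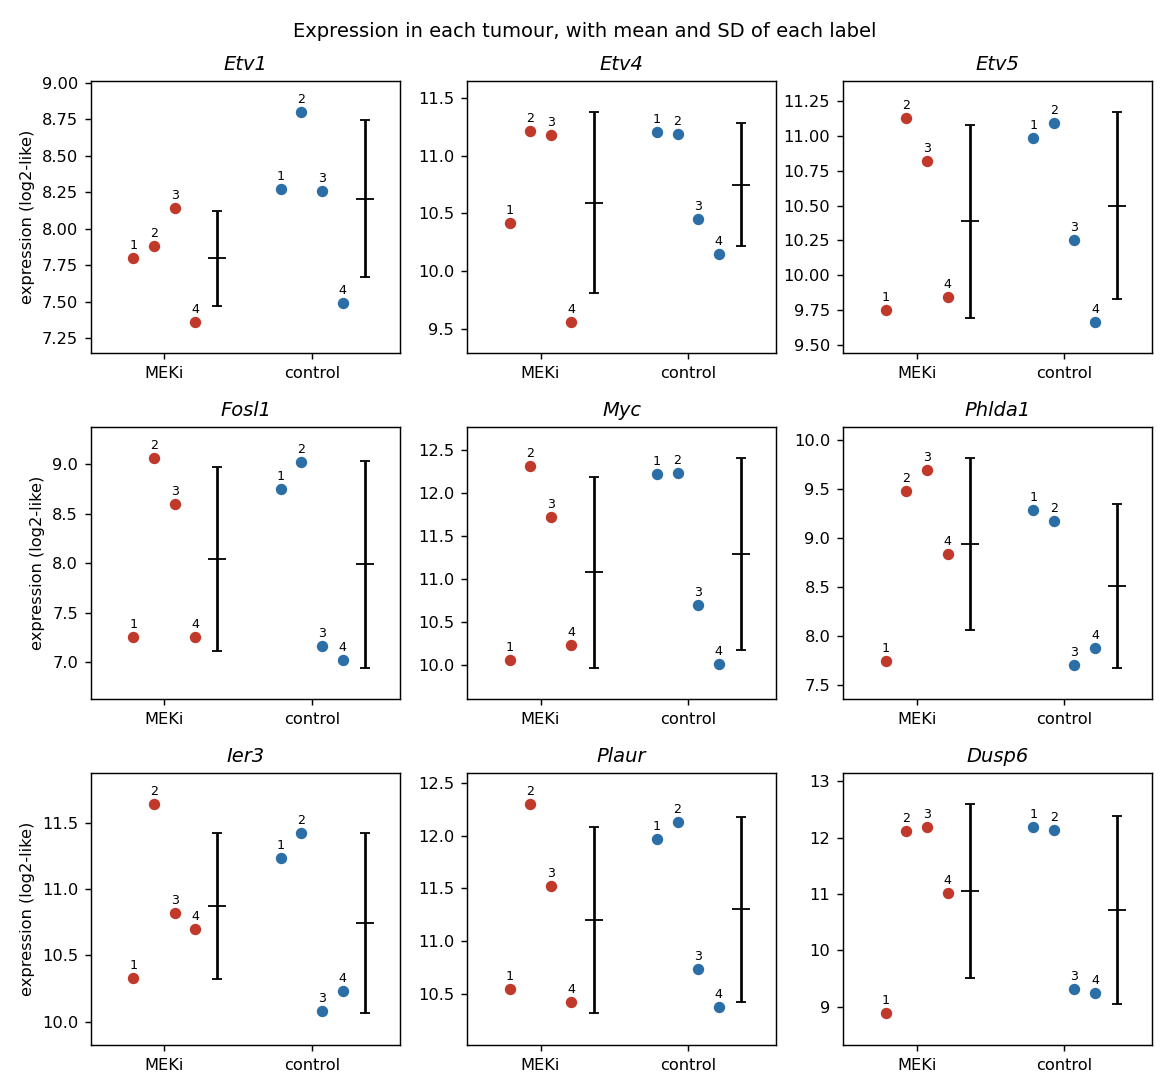
Expression on the log2-like scale (y axis) of the 8 genes and Dusp6 in each tumour by label (x axis); points are single tumours numbered by replicate, and the bar is the mean ± SD of 4 tumours. In every panel but that of Etv1, high and low tumours appear under both labels, for example Myc at 12.31 in MEKi 2 and 10.02 in control 4. For Etv1 the highest MEKi tumour (8.14) lay below controls 1, 2 and 3 (8.27, 8.80 and 8.26).

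Ordered by RPKM over annotated exons, the medians over 8 tumours were 60.2 for Ier3, 34.5 for Myc, 33.4 for Plaur, 21.8 for Etv4, 13.3 for Etv5, 7.82 for Phlda1, 4.16 for Fosl1 and 0.549 for Etv1. Neighbours in this order overlapped in their ranges over tumours, as with Myc (14.6 to 71.7) and Plaur (19.8 to 73.9), except at the low end, where Fosl1 (1.33 to 8.94) lay entirely above Etv1 (0.314 to 1.04). The exon length used is the union of all annotated transcripts, 13296 bases for Etv1, which lowers the figure of a gene with long or unused exons.

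Between the labels, 0 of the 8 genes were called by limma over all genes (adjusted p = 0.9996 for each), where 0.00523% of the 19129 genes were called. None had an unadjusted p under 0.05, against 1.77% of all genes, and for 0 of the 8 did the labels fail to overlap, against 1.27% of all genes. Exact permutation tests over 70 relabellings gave two-sided p-values of 0.229 to 0.857, where 0.0286 is the smallest they can give. Limma voom, on the reads recovered from the values, also called 0 of the 8. The median difference over the 8 genes was -0.11, beside 0.01 over all genes. Of the 8, 3 were higher and 5 lower in sign, beside 9861 higher and 9268 lower of all genes.

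The intervals of these differences were wide: those of Myc, Fosl1 and Plaur reached past 1 in both directions, while those of Etv5 and Ier3 stayed within 1 on either side. Myc averaged 11.08 ± 1.11 in MEKi tumours and 11.29 ± 1.11 in control tumours (SD, n = 4 each), a difference of -0.21 with a 95% interval of -1.62 to 1.20. Plaur averaged 11.20 ± 0.89 in MEKi tumours and 11.30 ± 0.88 in control tumours, a difference of -0.10 (interval -1.22 to 1.02). Fosl1 averaged 8.04 ± 0.93 in MEKi tumours and 7.99 ± 1.05 in control tumours, a difference of 0.05 (interval -1.22 to 1.32). For each of these 3 genes the SD within either label was larger than the difference between the means.

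Phlda1 had the largest positive difference of the 8 and Etv1 the largest negative one, and neither passed the test. Phlda1 averaged 8.94 ± 0.87 in MEKi tumours and 8.51 ± 0.83 in control tumours, a difference of 0.43 (interval -0.67 to 1.52). Etv1 averaged 7.80 ± 0.32 in MEKi tumours and 8.21 ± 0.54 in control tumours, a difference of -0.41 (interval -1.02 to 0.21). Of the 8 intervals, that of Etv1 reached least far above 0. Etv4 averaged 10.59 ± 0.78 in MEKi tumours and 10.75 ± 0.53 in control tumours, a difference of -0.15 (interval -1.01 to 0.71). Etv5, the gene with the same tumour order as Myc, averaged 10.39 ± 0.69 in MEKi tumours and 10.50 ± 0.67 in control tumours, a difference of -0.11 (interval -0.98 to 0.76). For Ier3 the means were 10.87 ± 0.55 in MEKi tumours and 10.74 ± 0.68 in control tumours, a difference of 0.13 (interval -0.67 to 0.93).

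**Figure D2:**
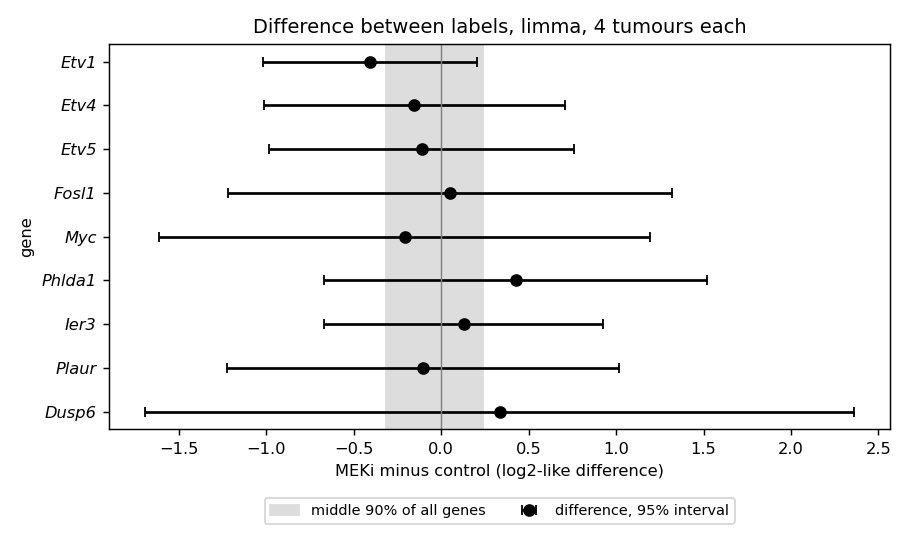
Difference between MEKi and control tumours (x axis, log2-like) for each gene (y axis) from limma; points are differences, bars are 95% intervals, and the grey band holds the middle 90% of all genes' differences. Every interval includes 0, from the narrowest, Etv1 (-1.02 to 0.21), to the widest, Dusp6 (-1.70 to 2.36).

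While the labels did not separate them, the 8 genes differed more between tumours than most genes do. The SD over the 8 tumours was 1.03 for Myc, 0.92 for Fosl1, 0.82 for Phlda1, 0.82 for Plaur, 0.63 for Etv5, 0.63 for Etv4, 0.58 for Ier3 and 0.46 for Etv1, against a median of 0.21 over all genes. An SD at least as large as that of Myc was found in 0.842% of genes, and one at least as large as that of Etv1 in 8.47%. Dusp6 had an SD of 1.499. Because the 8 genes were chosen with earlier results of these data known, these shares are descriptions and not a test.

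Dusp6 itself placed the tumours in separate groups. Dusp6 (chromosome 10, 99263231 to 99267489, plus strand) had 8.88, 12.12, 12.20 and 11.01 in MEKi tumours 1 to 4, against 12.19, 12.14, 9.31 and 9.24 in control tumours 1 to 4. Both labels held high and low tumours, and the difference was 0.33 (interval -1.70 to 2.36). Its largest gap between neighbouring tumours, from 9.31 in control 3 up to 11.01 in MEKi 4, was 51.3% of its whole range of 3.31, with 5 tumours above it and 3 below. Since the gap is over 50% of the range, no pooled correlation is given, and neither side holds enough tumours for a correlation of its own, so the relation was not tested. As a description, the 28 pairs of tumours were counted in which a gene and Dusp6 put the same tumour higher. Of these pairs 15 join tumours on opposite sides of the gap and 13 join tumours on one side.

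Of the 8 genes, Phlda1 followed Dusp6 most closely, in 24 of 28 pairs, a count reached by 1.82% of other genes. Etv5, Fosl1 and Myc followed it in 20 pairs, which 14.7% of other genes reach, and Etv1, Etv4, Ier3 and Plaur in 19, which 20.3% reach. The median over the 8 genes was 19.5 pairs, beside 14 over all other genes. For the genes other than Phlda1, at least 14.7% of other genes thus did as well.

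Except for Etv1, the agreement was closer across the Dusp6 gap than on one side of it. All 15 pairs across the gap were ordered alike for Fosl1, Phlda1 and Ier3 (5.20% of other genes), 14 for Etv5 and Myc (8.52%), 13 for Plaur (13.2%), 12 for Etv4 (20.6%) and 10 for Etv1 (34.0%). Of the 13 pairs on one side of the gap, 9 were ordered alike for Phlda1 and Etv1, 7 for Etv4, 6 for Etv5, Myc and Plaur, 5 for Fosl1 and 4 for Ier3, where the median of other genes is 7. The 8 values of a gene share library, depth and tumour composition with those of Dusp6, so these counts are descriptions only.

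**Figure D3:**
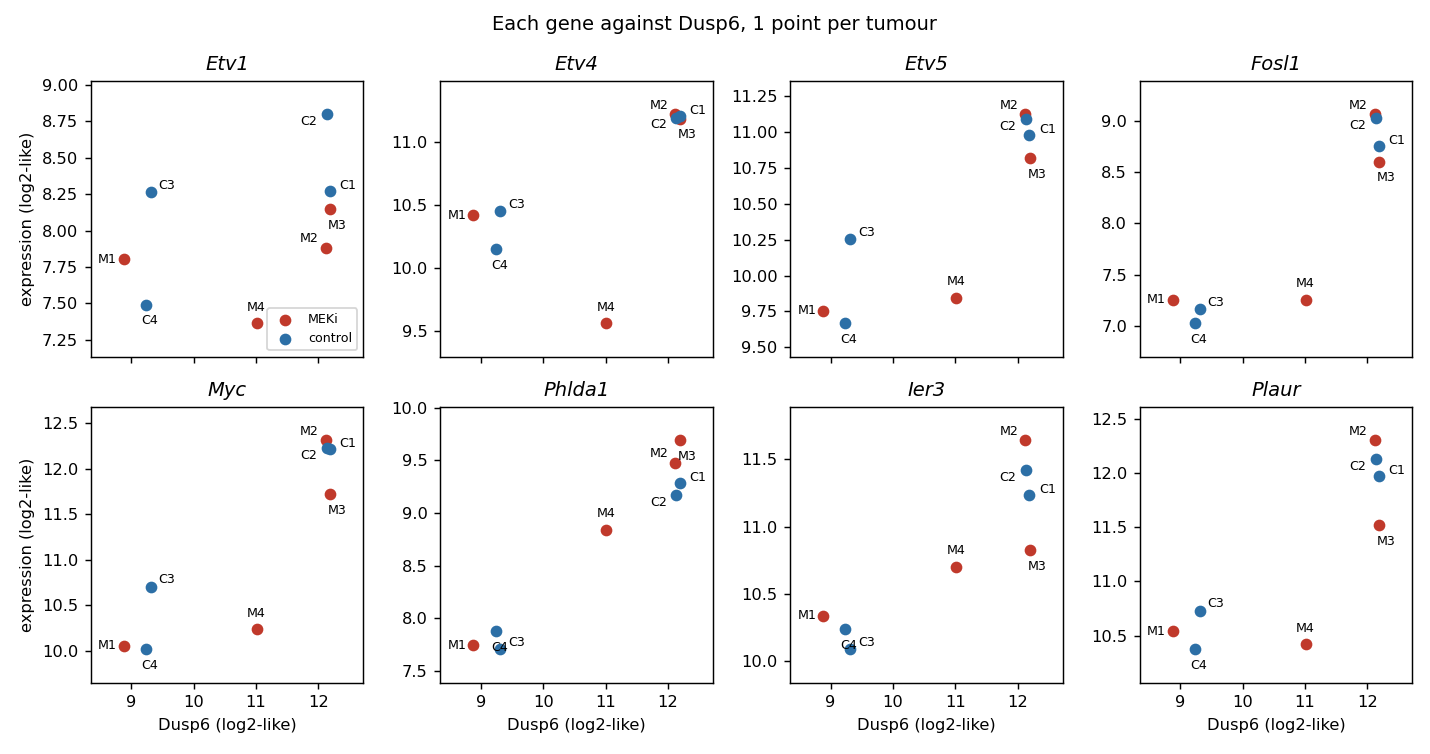
Expression of each gene (y axis, log2-like) against Dusp6 (x axis, log2-like), 1 point per tumour, labelled M for MEKi and C for control with the replicate number. The 4 tumours with Dusp6 above 12.1 are high for most genes, while M4, with Dusp6 at 11.01, sits with the low tumours for Etv4 (9.56) and Plaur (10.42) and between low and high for Phlda1 (8.84).

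In MEKi 4 several of these genes lay apart from Dusp6 and from each other. On a scale from 0 at a gene's lowest tumour to 100 at its highest, MEKi 4 lay at 64.3% for Dusp6, 57.2% for Phlda1 and 39.4% for Ier3. It lay at 12.3% for Etv5, 11.2% for Fosl1, 9.58% for Myc, 2.36% for Plaur and 0% for Etv4 and Etv1. On linear RPM, with no logarithm taken, the places were 37.5% for Dusp6, 42.5% for Phlda1 and 35.6% for Ier3. They were 4.16% for Myc, 0.796% for Plaur and 0% for Etv4 and Etv1. A linear scale puts a middle tumour lower than a log scale does, so these places are not comparable in size with those above. On the log2-like scale with library medians aligned, MEKi 4 lay at 64.9% for Dusp6 and 11.2% for Myc. MEKi 4 was singled out after its values were seen. The epithelial marker mean was 11.82 in MEKi 4 and 12.76 to 13.05 in the other MEKi tumours, beside 12.82 to 12.96 in control tumours. Its part in these values was not tested. The markers did not all move together: each but Cdh1 was lowest in MEKi 4, from Krt8 (15.03) to Cldn7 (7.08). Cdh1 was highest there (14.49).

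**Figure D4:**
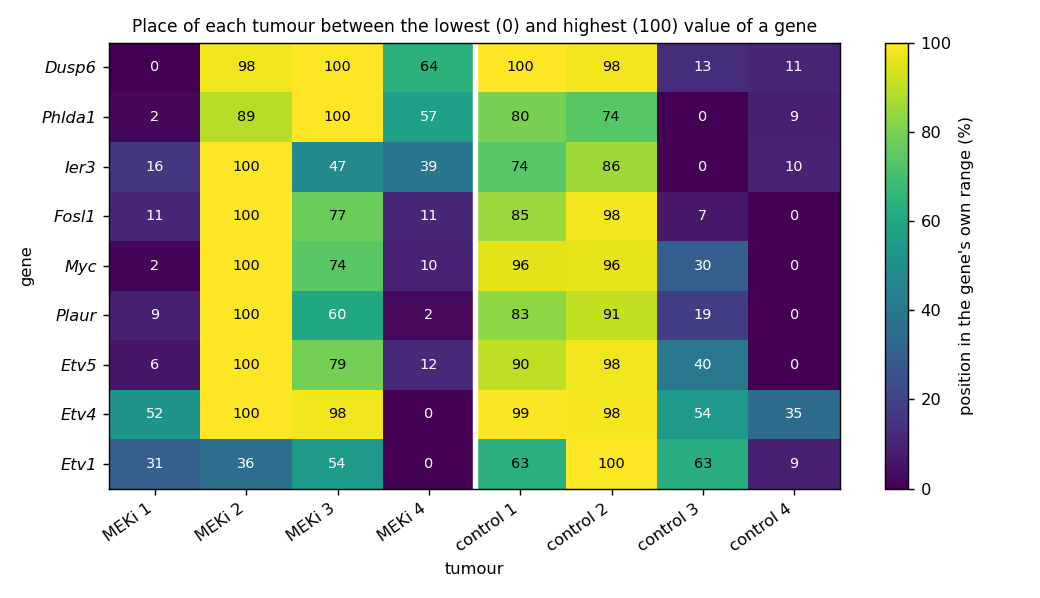
Place of each tumour (columns, MEKi left of control) between the lowest (0) and the highest (100) log2-like value of a gene (rows), in percent. Dusp6, Phlda1 and Ier3 place MEKi 4 at 64.3, 57.2 and 39.4, while the other 6 genes place it at 12.3 or below.

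Among themselves, the 8 genes shared between 15 and 28 of the 28 pairs. Phlda1 shared 24 pairs with Dusp6 and at most 23, with Ier3, with any other of the 8. Etv5 and Myc put the tumours in the same order in all 28 pairs, and Myc and Plaur did so in 27, as did Etv5 and Plaur and Fosl1 and Ier3. The closest pair in size was Fosl1 and Plaur, whose centred values differed by a root mean square of 0.18, followed by Etv5 and Plaur (0.22), Fosl1 and Myc (0.23), Myc and Plaur (0.25) and Etv4 and Etv5 (0.27). Etv1 and Phlda1 had the fewest pairs in common, 15 of 28, while Etv1 shared 21 with both Etv5 and Myc.

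Other genes with the most similar profiles were found by the same root mean square difference over 8 tumours. Nearest to Myc was Mmp10, a stromelysin that degrades matrix (0.18), followed by Tnfrsf22, a decoy receptor gene (0.22), and Nptx1, a pentraxin gene (0.22). Mmp10 and Tnfrsf22 were also near Plaur (0.13 and 0.16), together with Ereg, which encodes the EGF receptor ligand epiregulin (0.16). Mmp10 had 6.54, 8.48, 7.82 and 6.30 in MEKi tumours 1 to 4, against 8.15, 8.22, 6.96 and 6.39 in control tumours 1 to 4, high and low in the same tumours as Myc.

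Nearest to Fosl1 were Gprc5a, an orphan receptor gene (0.14), Egr3, an immediate early zinc finger gene (0.17), and Hbegf, another EGF receptor ligand gene (0.18). Nearest to Phlda1 were Gcnt3, which encodes a mucin glycosyltransferase (0.18), Gimd1 (0.21) and Errfi1, a feedback inhibitor gene of the EGF receptor (0.21). Errfi1 had 12.04 in MEKi 4, between its low and high tumours as in Phlda1. Nearest to Ier3 were the cytokine gene Il1a (0.17), the neutrophil chemokine gene Cxcl1 (0.17) and Clca2 (0.18). Etv4 was nearest to Slc9a2, a sodium-proton exchanger gene (0.09), Ppm1j (0.11) and Srd5a1 (0.12), and Etv5 to the kinase gene Pim3 (0.12), the inflammasome sensor gene Nlrp3 (0.15) and Smtn (0.16).

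Known target genes of MYC are described beside Myc itself. The 18 MYC target genes, mostly of ribosome assembly and nucleotide and polyamine synthesis, had list means of 11.72, 11.66, 11.59 and 11.03 in MEKi tumours 1 to 4, against 11.61, 11.70, 11.55 and 11.60 in control tumours 1 to 4. The list mean was thus lowest in MEKi 4, and an average over many genes varies less than a single gene. MEKi 1 and control 4, the tumours with the least Myc (10.06 and 10.02), had target means of 11.72 and 11.60. All 18 genes had a smaller range than Myc (2.30), from 0.32 for Cdk4 to 1.34 for Srm with a median of 0.81, as did 98.0% of all genes, and their median count of pairs ordered as Myc was 16.5 of 28, beside 14 over all genes. One of the 18, Polr1b, a subunit gene of RNA polymerase I chosen after its values were seen, reached 24 pairs, as 3.53% of all genes did.

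All 18 MYC target genes had their lowest value in MEKi 4, against 21.7% of all genes. The number was 17 with library medians aligned (19.1% of all genes), 17 after quantile normalization (21.1%) and 13 in RPM (14.7%). Between labels 0 of the 18 were called, 2 were higher and 16 lower in sign, and their median difference was -0.13. Of all 19129 genes, 9861 were higher and 9268 lower in sign. The list means of MEKi tumours 1 to 3 were 11.72, 11.66 and 11.59, beside 11.55 to 11.70 in control tumours, and only MEKi 4 (11.03) lay below the controls. Odc1, which encodes the rate-limiting enzyme of polyamine synthesis, had the smallest p of the list (12.46 ± 0.17 in MEKi tumours and 12.58 ± 0.08 in control tumours), and Npm1, a nucleolar chaperone gene, the highest level (15.16 ± 0.29 in MEKi tumours and 15.30 ± 0.13 in control tumours).

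Of the 12 genes of the MYC network, Myc itself not counted, 0 were called, 8 were higher and 4 lower in sign. Their ranges over tumours ran from 0.22 for Mlx to 1.30 for Mxd4, with a median of 0.58. Mxd1, which encodes a MAX partner that opposes MYC, averaged 10.06 ± 0.14 in MEKi tumours and 10.30 ± 0.24 in control tumours, and Mga, another MAX-binding gene, 12.03 ± 0.22 in MEKi tumours and 11.96 ± 0.11 in control tumours.

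**Figure D5:**
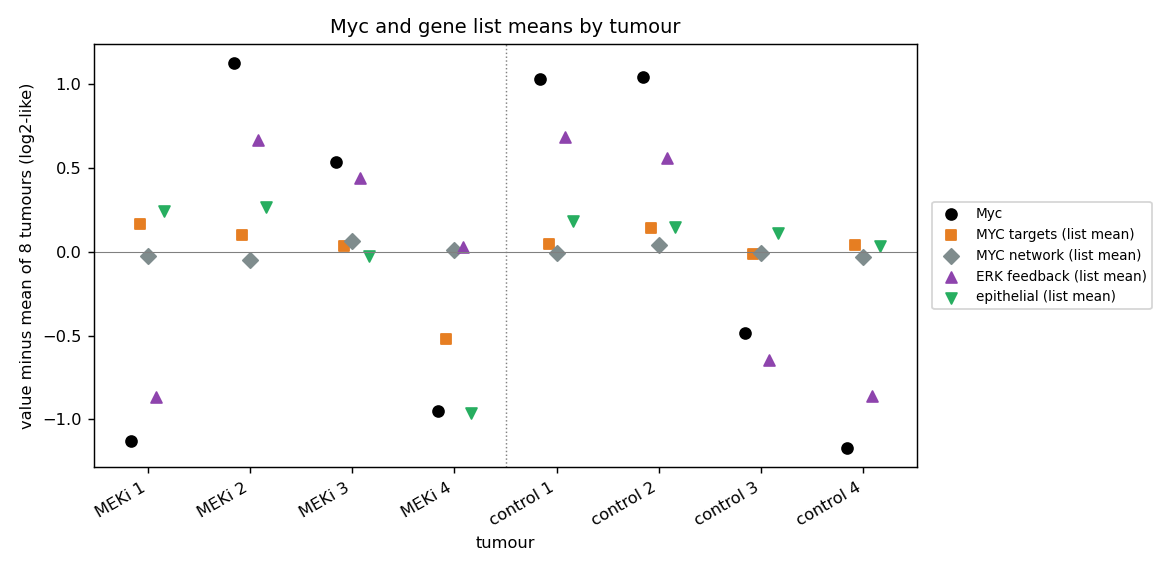
Myc and the means of 4 gene lists in each tumour (x axis), as the log2-like value minus its mean over 8 tumours (y axis); each point is 1 tumour, and a mean over many genes varies less than a single gene. Myc and the ERK feedback list mean are high in MEKi 2, MEKi 3, control 1 and control 2, whereas the MYC target mean lies between 11.55 and 11.72 in every tumour but MEKi 4, where it is 11.03.

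Genes that regulate or accompany the PEA3 factors showed no difference that passed the test between labels. Of 9 genes that control PEA3 proteins or transcription, 0 were called, 7 were higher and 2 lower in sign, with a median difference of 0.05. Cop1, which encodes a ubiquitin ligase that degrades PEA3 proteins, averaged 11.27 ± 0.04 in MEKi tumours and 11.15 ± 0.09 in control tumours. The deubiquitinase gene Usp9x averaged 12.46 ± 0.40 in MEKi tumours and 12.39 ± 0.14 in control tumours. All 9 had a smaller range over tumours than Etv4, as did 94.6% of all genes, with a median range of 0.44.

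Of 17 other ETS genes, 0 were called, 9 were higher and 8 lower in sign. Their ranges over tumours had a median of 0.49 and ran from 0.19 for Etv3 to 2.38 for Spdef, above the 1.66 of Etv4, and 16 of the 17 lay below Etv4, beside 94.6% of all genes. Their median count of pairs ordered as Etv4 was 14, the same as over all genes. The epithelial ETS gene Elf3 averaged 11.39 ± 0.71 in MEKi tumours and 11.80 ± 0.37 in control tumours, and its relative Ehf 13.14 ± 0.48 in MEKi tumours and 13.25 ± 0.38 in control tumours. Ehf was ordered as Dusp6 in 4 of 28 pairs and Elf3 in 7.

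AP-1 subunit genes, the partners and relatives of Fosl1, were called in 0 of 9 cases, with 5 higher and 4 lower in sign. Fosl2, which encodes FRA-2 and had both the smallest p and the highest level, averaged 11.42 ± 0.15 in MEKi tumours and 11.59 ± 0.08 in control tumours. Its range over tumours, 0.47, was the smallest of the 9, whose median was 1.37 and whose largest was 1.83 for Fos, below the 2.04 of Fosl1. Of 12 genes of early response and apoptosis 0 were called (7 higher, 5 lower in sign). Klf4 averaged 9.83 ± 0.15 in MEKi tumours and 9.65 ± 0.28 in control tumours. The survival gene Mcl1 averaged 13.65 ± 0.11 in MEKi tumours and 13.62 ± 0.13 in control tumours.

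Around the urokinase receptor, 0 of 10 genes of plasminogen activation were called, 3 were higher and 7 lower in sign, with a median difference of -0.23 beside 0.01 over all genes. Serpinb2, which encodes an inhibitor of urokinase, averaged 6.16 ± 1.13 in MEKi tumours and 7.75 ± 1.59 in control tumours, a difference of -1.58 with an SE of 0.78 (limma adjusted p = 0.9996). MEKi 2, at 7.85, stood above the other MEKi tumours (5.45 to 5.73), and control 4, at 5.58, stood with those. These low values of Serpinb2 lie near 5.12, the value of 0 reads, so its difference rests on few reads there. Plat, the tissue plasminogen activator gene, averaged 13.71 ± 0.87 in MEKi tumours and 14.03 ± 0.27 in control tumours, and was lowest in MEKi 4 at 12.43. The median count of pairs in which these genes were ordered as Plaur was 20.5 of 28.

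Upstream, 0 of the 12 cascade genes were called, with Mapk3 at 11.87 ± 0.14 in MEKi tumours and 11.76 ± 0.15 in control tumours and Nras at 12.53 ± 0.14 in MEKi tumours and 12.48 ± 0.17 in control tumours. Of the 10 ERK feedback genes 0 were called, 8 were higher and 2 lower in sign, and Dusp6 is one of them. Spry2, a receptor signalling inhibitor gene, averaged 9.07 ± 0.87 in MEKi tumours and 8.80 ± 0.81 in control tumours, and Spred1, which encodes an inhibitor of RAF activation, 11.43 ± 0.45 in MEKi tumours and 11.32 ± 0.45 in control tumours. When the mean of all 9 other feedback genes took the place of Dusp6, an alternative chosen after seeing the data, the median share of pairs ordered alike by the 8 genes was 85.7%, against 69.6% with Dusp6 and a median of 50% over all genes. At least 85.7% was reached by 3.32% of all genes. The median share was 89.3% with the mean of Dusp4, Spry2, Spry4, Spred1 and Spred3 alone, 5 genes picked with earlier results of these data known. At least 89.3% was reached by 2.03% of all genes. Phlda1 went the other way, with 75% for the mean of the 9 genes, against 85.7% for Dusp6.

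Markers of other cell types that the tumour pieces hold are given beside these values. The 8 macrophage markers were all lower in sign, with list means of 11.73 to 11.97 in MEKi tumours and 11.95 to 12.52 in control tumours, and none of the 8 was without reads in any library. The macrophage list mean was ordered as Plaur, which macrophages also express, in 17 of 28 pairs. The 6 neutrophil markers, none at 0 in any library, had list means of 8.05 to 9.94 in MEKi tumours and 9.20 to 9.47 in control tumours and were ordered as Plaur in 13 pairs. The endothelial list mean, over 5 genes with none at 0, was 8.96, 9.72, 9.46 and 9.46 in MEKi tumours 1 to 4, against 10.08, 10.20, 9.19 and 8.90 in control tumours 1 to 4. It was ordered as Myc, Etv5 and Fosl1 in 24 pairs each and as Ier3 and Plaur in 23 each. With Dusp6 it shared 22 pairs, with Etv4 21 and with Phlda1 18. The epithelial list mean shared from 15 (Phlda1) to 22 (Etv4) pairs with the 8 genes, and 13 with Dusp6. The 7 fibroblast markers, none at 0, had list means of 12.22 to 12.98 in MEKi tumours and 12.25 to 13.55 in control tumours. Their mean was ordered as Etv1 in 21 pairs, as were the macrophage and endothelial list means, and the erythroid list mean was in 23. The remaining list means shared from 10 (T cell) to 18 (epithelial) pairs with Etv1. With Dusp6 the erythroid list mean shared 24 pairs, the count of Phlda1, and the other cell-type list means from 7 (islet) to 22 (endothelial). Over all other genes the median was 14 pairs for each of the 8 genes and for Dusp6. The part of these cell types in the values of the 8 genes and of Dusp6 was not tested.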

How the data were processed

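Total RNA was sequenced from tumours of 8 mice (4 MEKi, 4 control), and libraries were assigned by the labels' sample names. The authors deposited variance-stabilised counts, on a log2 scale and relative to library size. Tools named in the submitters' processing notes are DESeq2 1.18.1 and STAR 2.5.3a, with the build GRCm38; for annotation, counting and filter, nothing is given in the sources used here. Whole reads were recovered by inverting the transformation from its floor of 5.12 (100% of values within 0.01 of a whole number). Of 19431 rows, 32 named no gene (at most 0.167% of reads) and were left out, and 1 row was kept for each of 86 repeated symbols, leaving 19129 genes and 20090101 to 38569550 reads per library.

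The test between labels was limma 3.58.1 (R 4.3.3; trend, two-sided, Benjamini-Hochberg over all genes, threshold 0.05), after a test on simulated data. The 8 genes and the gene lists were chosen with earlier results of these data known. Genes named from a list are those with the smallest p and the highest mean, and the 3 nearest profiles are named for genes with an SD of at least 0.5. Alternatives covered normalization, filtering, moderation, array weights, voom on recovered reads, log2(RPM + 1), acinar or epithelial covariates, a replicate block and leaving out libraries. Coordinates and exon lengths are from GENCODE for GRCm38, counted from 1.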

Additional observations from a re-analysis of the deposited data

Results flagged for a closer look

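None of the 8 genes had a tumour far from the others of its label by Dixon's test. Of 56 groups of 4 tumours tested, 4 had one, all in marker lists of other cell types, where chance alone gives about 1 in 20. The erythroid list mean was 11.12 in MEKi 3, against 7.32 to 7.93 in the other MEKi tumours, and 9.76 in control 2, against 7.87 to 8.09 in the other control tumours. The T cell list mean was 9.82 in control 4, against 8.45 to 8.61 in the other control tumours. The islet list mean was 10.18 in control 3, against 8.29 to 8.52 in the other control tumours.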

How the results depend on the processing

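Of the 8 genes, 0 were called under every alternative run. The number of all genes called was 1, and it was 0 with the 75% of genes of highest mean, with the acinar or the epithelial covariate and with the replicate block, 2 on log2(RPM + 1), 4 without control replicates 2 and 3 (chosen after seeing the data), and 0 to 2 with 1 library left out (0 without MEKi 1, 2, 3 or 4 or control 1, and 2 without control 4). Replicate numbers did not pair the tumours: correlations of same-numbered deviations were -0.33, 0.20, -0.46 and 0.02, and 0 of 4 tumours correlated best with its own number.

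Differences between MEKi and control changed sign for Dusp6 with array weights (-0.037), for Plaur on log2(RPM + 1) (0.0036), for Fosl1 with the acinar covariate (-0.15), and with the epithelial covariate for Etv4 (0.13), Etv5 (0.046), Myc (0.044) and Plaur (0.14). Without control replicates 2 and 3, Etv5 was 0.061, Plaur 0.024 and Etv1 -0.083. With 1 library left out, differences ranged from -0.64 to -0.21 for Etv1, 0.16 to 0.82 for Phlda1, -0.36 to 0.19 for Etv4, -0.39 to 0.10 for Etv5, -0.29 to 0.39 for Fosl1, -0.63 to 0.13 for Myc, -0.13 to 0.35 for Ier3, -0.47 to 0.17 for Plaur and -0.16 to 1.06 for Dusp6. Etv1 and Phlda1 kept their sign under every alternative run. The cause was not tested.

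The median share of tumour pairs ordered as Dusp6 was 69.6%, moved to 89.3% with the mean of 5 other feedback genes (picked with earlier results known), and was 85.7% with all 9 (added after seeing the data), 85.7% on acinar residuals, 82.1% on epithelial residuals, 75% in RPM and 66.7% to 73.8% with 1 library left out. Fosl1 and Etv1 rest on the fewest reads, down to 58 and 97 in a library, and 4 tumours a label limit the precision of every difference.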
